A study of Mus musculus with 24 samples.

Results

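The liver makes most of the proteins of blood plasma, and in inflammation it shifts which of them it makes. Described here are the liver transcripts of 32 acute phase genes in mice fed quercetin, a flavonol of many plant foods. The genes were chosen by symbol, with earlier results of these data known, as 27 positive reactants, whose products rise in plasma during inflammation or act with those that do, and 5 negative reactants, Alb, Ttr, Rbp4, Ahsg and Serpina6, whose products fall. Of the 32, 31 had a probe set annotated to that gene alone, out of 18193 genes measured, namely 26 positive members and all 5 negative reactants. The expression of C3, the central complement component, was not analysed here, and C3 enters only the counts of promoter windows.

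Total RNA from the liver of 24 male BALB/c mice was measured with 1 Affymetrix array per mouse. The mice were obtained at 6 weeks of age, had 1 week on a nonpurified diet and then ate the purified diet AIN93G for 14 days. It held no quercetin (control) or 0.1%, 0.5% or 1.0% quercetin, with 6 mice per group, and no allele or other agent is named for any group. Mice were housed 3 per cage, and with no cage number used here, cage and diet cannot be told apart. Values are log2(intensity + 1) after quantile normalization between arrays. Differences carry the standard error (SE) of a limma fit over all 24 arrays, and p-values are two-sided, with Benjamini-Hochberg adjustment over all 18193 genes and a threshold of 0.05. They measure the spread between these mice, and the fit treats mice of a cage as independent. In bulk liver RNA, fewer cells of a type and less RNA per cell cannot be told apart.

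The acute phase response begins when cytokines such as interleukin-6 and interleukin-1 reach hepatocytes. Interleukin-6 acts through the transcription factor STAT3 and interleukin-1 through NF-kB, and both act with C/EBP factors on the promoters of secreted proteins. The serum amyloid A genes are among those with the widest range of expression in mouse liver, whereas C-reactive protein, a main acute phase protein in humans, responds little in mice. SOCS3 is induced by STAT3 and feeds back on the interleukin-6 receptor.

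The promoters of the 3 serum amyloid A genes that hepatocytes or macrophages express in inflammation, and of Steap4, are shown because the results turn on these members. Each window runs from 250 bases before to 50 bases after the transcription start, 5′ to 3′ on the gene's strand, from RefSeq (GRCm38.p6). They lie at chr7:46742931-46743230 (Saa1, minus strand), chr7:46751583-46751882 (Saa2, plus strand), chr7:46715627-46715926 (Saa3, minus strand) and chr5:7960222-7960521 (Steap4, plus strand). Capitals mark matches to motifs searched on both strands, TTGCNNAA for C/EBP, TTCNNNGAA for STAT and a 10-letter NF-kB motif.
Saa1: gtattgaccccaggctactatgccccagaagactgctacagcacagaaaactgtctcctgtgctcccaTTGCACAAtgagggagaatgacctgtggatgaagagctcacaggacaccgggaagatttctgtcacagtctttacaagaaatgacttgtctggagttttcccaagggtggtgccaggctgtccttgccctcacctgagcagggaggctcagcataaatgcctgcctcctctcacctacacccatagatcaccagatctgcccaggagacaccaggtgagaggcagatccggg
Saa2: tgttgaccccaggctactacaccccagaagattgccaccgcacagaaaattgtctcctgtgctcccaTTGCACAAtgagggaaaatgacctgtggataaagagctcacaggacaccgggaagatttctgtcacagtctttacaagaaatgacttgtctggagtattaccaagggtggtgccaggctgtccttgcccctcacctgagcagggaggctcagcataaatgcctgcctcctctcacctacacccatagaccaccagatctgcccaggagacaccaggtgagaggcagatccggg
Saa3: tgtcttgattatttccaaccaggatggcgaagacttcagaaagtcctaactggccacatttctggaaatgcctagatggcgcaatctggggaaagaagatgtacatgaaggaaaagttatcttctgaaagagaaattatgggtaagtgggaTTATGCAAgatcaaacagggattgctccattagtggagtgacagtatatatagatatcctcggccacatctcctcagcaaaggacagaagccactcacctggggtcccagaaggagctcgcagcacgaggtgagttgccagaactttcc
Steap4: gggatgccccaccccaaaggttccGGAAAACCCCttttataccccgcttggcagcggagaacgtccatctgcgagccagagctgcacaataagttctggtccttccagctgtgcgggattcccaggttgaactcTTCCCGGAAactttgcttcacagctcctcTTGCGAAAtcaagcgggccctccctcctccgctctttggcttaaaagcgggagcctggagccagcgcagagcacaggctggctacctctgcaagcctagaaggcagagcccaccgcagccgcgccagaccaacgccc

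The Saa1 and Saa2 windows were alike at 287 of 301 aligned positions (95.3%), against 50.9% for Saa1 and Saa3. Saa1 and Saa2 hold the same C/EBP match, TTGCACAA, starting 182 and 183 bases before the start. Steap4 holds 3 matches, GGAAAACCCC for NF-kB, TTCCCGGAA for STAT and TTGCGAAA for C/EBP, starting 226, 116 and 87 bases before the start. Of the 32 members, 24 had a window in the table. The C/EBP motif was in 12 of 21 positive members and in 3 of 3 negative reactants with a window, against 12.2% of all 27025 genes with one. The STAT motif was in 5 of 21 positive members and 0 of 3 negative reactants, against 9.55% of genes. The NF-kB motif was in 3 positive members, Il1rn, Serpina3n and Steap4, against 1.90% of genes. These are matches of letters in a window and say nothing of whether a factor is bound.

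Array medians of the deposited intensities ran from 4.78 to 7.58 before normalization, and precision is limited by there being 6 arrays per group. The summed level of 8 hepatocyte markers was 14.7 to 14.9 on the log2 scale in every array. At 1.0%, 0 of the 8 markers lay above control (median -0.20), and for the slope 0 of 8 (median -0.13), with 0 passing the adjusted threshold; their part in the members' differences was not tested. Over the genes outside the lists used here, 4 arrays stood apart on the first principal component (8.8% of the variance), replicates 4 and 6 of the 0.5% group and replicates 4 and 5 of the 1.0% group. Replicate 2 of the 1.0% group stood apart on the second (5.93%). The 18S signal of replicate 1 of the 0.5% group (10.7) and replicate 6 of the 1.0% group (9.81) was above the highest control (8.43). The actin 3′ minus 5′ signal, a sign of RNA degradation, was 1.33 and 1.17 in these 2 arrays and 0.83 to 1.04 in control. Some other arrays were also above the control range for actin, up to 1.08. The Gapdh 3′ minus 5′ signal of the 2 arrays with high 18S signal, -0.26 and -0.354, lay within the control range (-0.487 to -0.242). Results are therefore given with and without the 4 arrays, and with and without these 2, where the value depends on them.

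No member passed the adjusted threshold against control at any dose. The members passing were 0 of 31 at 0.1%, where 0% of all genes passed, 0 of 31 at 0.5% (0.0165% of genes), 0 of 31 at 1.0% (0.022%) and 0 of 31 for the slope over dose (0.0989%). Between doses they were 0 of 31 for 0.5% against 0.1% (0.214% of genes), for 1.0% against 0.1% (0.253%) and for 1.0% against 0.5% (0.022%), and 0 of 31 in the test of any difference among the 4 groups (0.181%). At an unadjusted p under 0.05, 7 of 26 positive members stood higher than control at 0.5%, a share of 26.9% against 3.74% of all genes. At 1.0% it was 8 of 26 (30.8%, against 4.45% of genes), for the slope 10 of 26 (38.5%, against 4.86%), and at 0.1% 1 of 26, Orm3 (against 2.76%). Lower values at that p were found for 0 of 26 at 0.1% (2.35% of genes) and 0 of 26 at 0.5% (3.91%). None of the 5 negative reactants had an unadjusted p under 0.05 in any of these comparisons (5.11%, 7.65%, 8.92% and 10.9% of all genes at 0.1%, 0.5%, 1.0% and for the slope). The comparisons with control share the same 6 control mice.

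The members higher at 0.5% by that looser rule were Saa1, Saa2, Saa3, Saa4, Orm2, Serpina10 and Steap4. At 1.0% they were Saa1, Saa2, Saa3, Saa4, Serpina3n, Serpina10, Steap4 and Lrg1, and for the slope Hp and Fgl1 joined these 8. The median log2 difference of the positive members was 0.02 at 0.1%, 0.30 at 0.5% and 0.22 at 1.0%, and that of all genes 0.01, -0.02 and -0.01. With single arrays left out, the median of the positive members ran from 0.00498 to 0.0539, from 0.160 to 0.344 and from 0.152 to 0.266, the lowest at 0.5% without replicate 6 of that group and the lowest at 0.1% without control replicate 2. The negative reactants had medians of -0.03, -0.05 and -0.02. Above control lay 16, 23 and 21 of the 26 positive members, where 52.3%, 46.6% and 48.4% of all genes did, and 1, 0 and 2 of the 5 negative reactants. Between 0.5% and 1.0% the median of the positive members was 0.00, and 0 had an unadjusted p under 0.05 (higher 3.25%, lower 2.95% of genes). Against the 0.1% group, 8 positive members were higher at 0.5% (4.36% of genes) and 8 at 1.0% (4.21%), and 2 (Orm3 and Ambp; 5.74%) and 1 (Orm3; 5.21%) were lower.

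**Figure D1:**
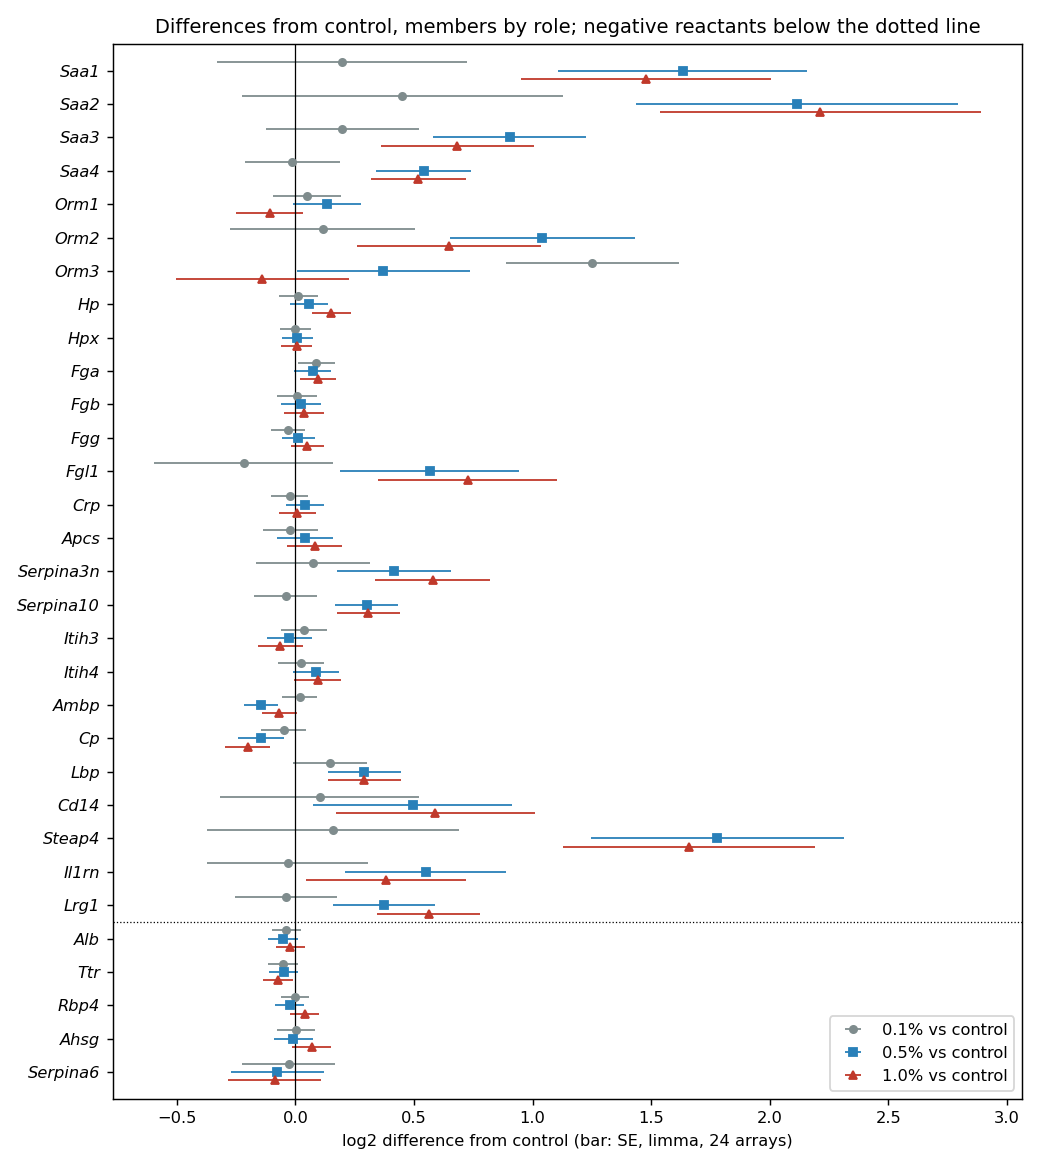
Log2 difference from control for the 31 measured members at 0.1% (circles), 0.5% (squares) and 1.0% (triangles) quercetin, with bars of 1 SE from limma over 24 arrays; members are ordered by role and the 5 negative reactants lie below the dotted line. The widest differences are those of Saa2 (2.12 and 2.21 at 0.5% and 1.0%), Steap4 (1.78 and 1.66) and Saa1 (1.63 and 1.48), while the negative reactants lie between -0.09 and 0.07.

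The serum amyloid A proteins are apolipoproteins of high density lipoprotein. Saa1 and Saa2 are the main acute phase forms of the liver, Saa3 is made largely by macrophages and other tissues, and Saa4 is made constitutively. RefSeq places the 4 genes in one cluster on chromosome 7. Saa1 had a lowest, median and highest level of 8.496, 8.67 and 9.40 in control, 8.63, 8.72 and 9.78 at 0.1%, 8.67, 10.58 and 12.36 at 0.5%, and 9.33, 10.24 and 11.77 at 1.0%. At 0.5% 4 of 6 mice lay above the highest control, at 1.0% 4 of 6 and at 0.1% 2 of 6, so the groups overlapped. The difference from control was 1.63 at 0.5% (SE 0.53, limma, unadjusted p = 0.00515, adjusted p = 0.507) and 1.48 at 1.0% (SE 0.53, unadjusted p = 0.0102, adjusted p = 0.416). Within the 0.5% group, replicates 1, 4 and 6 stood at 11.51, 11.34 and 12.36 and replicates 2, 3 and 5 at 9.18, 8.67 and 9.82. Those 3 high mice include both arrays apart on the first component and the array with high 18S signal.

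Saa2 followed the same mice. It ran from 6.17 to 7.25 in control (median 6.54), from 6.21 to 7.96 at 0.1% (6.93), from 6.47 to 11.71 at 0.5% (8.48) and from 7.68 to 10.60 at 1.0% (8.69). All 6 mice of the 1.0% group were above the highest control, and the 0.5% group spanned the control range and beyond. Arrays that do not overlap with control in that direction were found for 4 positive members at 1.0%, Saa2, Saa3, Serpina3n and Steap4, and for 0.401% of all genes. Against the 0.1% group, 3 members did not overlap at 1.0%, Saa3, Serpina3n and Steap4 (0.517% of genes). The Saa2 difference was 2.12 at 0.5% (SE 0.68, limma, unadjusted p = 0.00499, adjusted p = 0.507) and 2.21 at 1.0% (SE 0.68, unadjusted p = 0.00355, adjusted p = 0.365), and its slope was 2.26 per 1% quercetin (SE 0.62, adjusted p = 0.139). The Saa2 probe set is of a kind that can bind related transcripts, so Saa1 and Saa2 signals may share RNA. The second Saa1 probe set, also of a kind that can bind related transcripts, differed from control by 1.88 at 0.5% and 1.81 at 1.0%.

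Leaving out arrays changed Saa1 and Saa2 most at 0.5%. Without the 4 arrays apart, Saa1 stood 0.95 above control at 0.5% and 0.95 at 1.0%, and Saa2 1.18 and 1.63 (limma, unadjusted p = 0.0429 and 0.00787, adjusted p = 0.967 and 0.446). Without both those 4 and the 2 arrays with high 18S signal, Saa1 was 0.38 and Saa2 0.40 above control at 0.5%, with 3 mice left, but 1.10 and 1.82 at 1.0%. Without the 2 arrays alone, Saa2 was 1.83 and 2.45 above control. The Saa2 difference at 1.0% thus lay between 1.63 and 2.45 in these sets of arrays, and that at 0.5% between 0.40 and 2.12.

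Saa3 was dim, with a lowest, median and highest level of 4.47, 4.86 and 5.08 in control, 4.63, 5.08 and 5.14 at 0.1%, 4.83, 5.26 and 7.55 at 0.5%, and 5.19, 5.37 and 6.13 at 1.0%. All 6 mice at 1.0% were above the highest control. Its difference was 0.90 at 0.5% (SE 0.32) and 0.68 at 1.0% (SE 0.32), and without the 4 arrays 0.28 and 0.59. Saa4 had levels of 10.11, 10.38 and 10.505 in control, 10.30, 10.84 and 11.59 at 0.5%, and 10.41, 10.77 and 11.34 at 1.0%. It differed by 0.54 and 0.52 (SE 0.20 each), and by 0.25 and 0.39 without the 4 arrays. Of the 3 mice with the highest Saa1 at 0.5%, replicates 4 and 6 had high Saa4 (11.31 and 11.59), while replicate 1 (10.53) was close to the highest control.

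**Figure D2:**
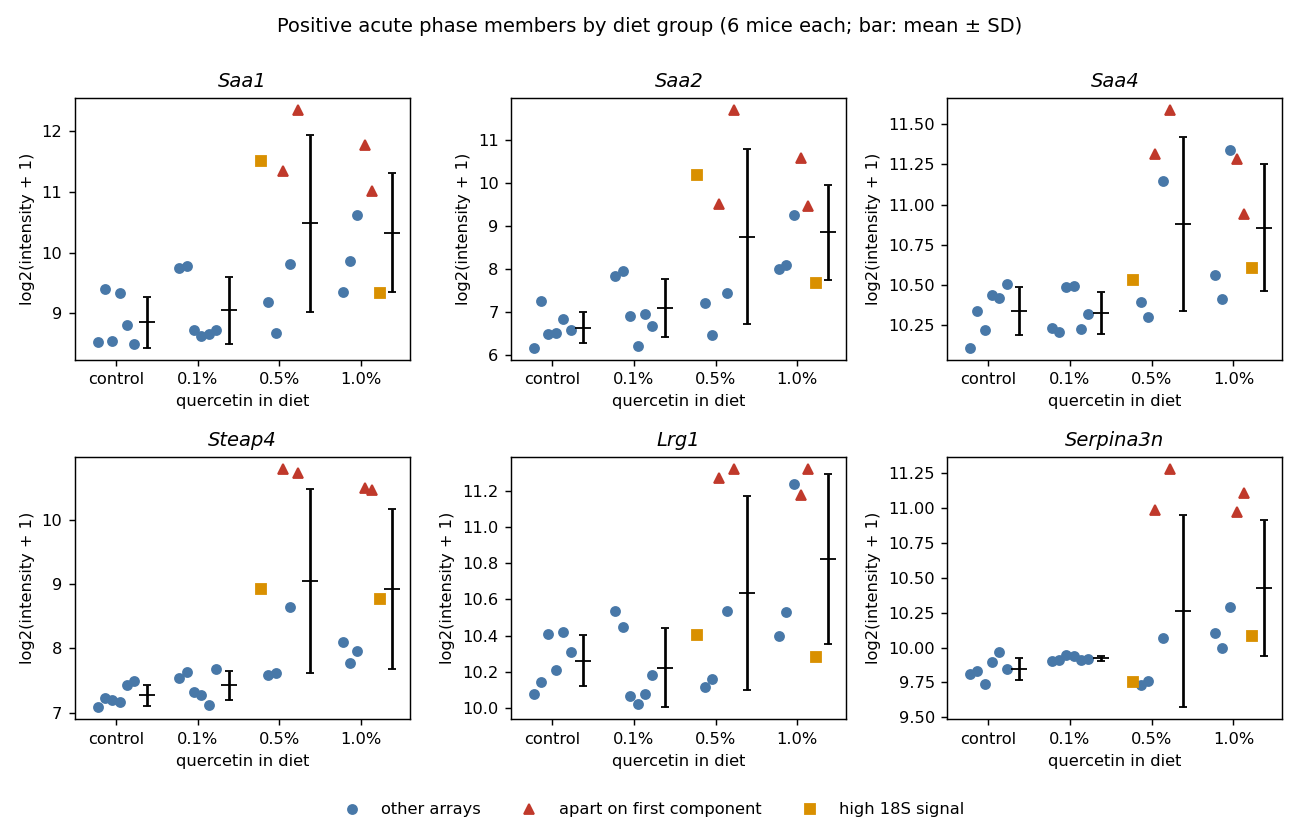
Level of 6 positive members in each of 24 mice by diet, as log2(intensity + 1) after quantile normalization; triangles mark the 4 arrays apart on the first principal component, squares the 2 arrays with high 18S signal and bars the mean ± SD of 6 mice. Steap4 lies above the highest control (7.49) in every mouse at 0.5% and 1.0%, and the triangles are the 4 highest Steap4 and Serpina3n values.

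Steap4 encodes a metalloreductase of cell membranes that inflammation induces in liver. Its lowest, median and highest levels were 7.08, 7.21 and 7.49 in control, 7.11, 7.43 and 7.68 at 0.1%, 7.58, 8.78 and 10.79 at 0.5%, and 7.77, 8.43 and 10.49 at 1.0%. All 12 mice of the 0.5% and 1.0% groups were above the highest control, and at 0.5% Steap4 alone of the positive members did not overlap with control (0.192% of genes). It differed by 1.78 at 0.5% (SE 0.53, limma, unadjusted p = 0.00294, adjusted p = 0.50) and 1.66 at 1.0% (SE 0.53, unadjusted p = 0.00502, adjusted p = 0.365). The 4 arrays apart stood at 10.5 to 10.8, and the other 8 mice of these groups at 7.58 to 8.93. Without the 4 arrays the differences were 0.92 and 0.88 (adjusted p = 0.772 and 0.337), and without the 2 arrays with high 18S signal as well 0.68 and 0.68. The second Steap4 probe set gave 1.61 and 1.54 over all arrays.

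Lrg1, a secreted glycoprotein with leucine-rich repeats that the liver makes in the acute phase, ran from 10.08 to 10.42 in control (median 10.26), from 10.11 to 11.32 at 0.5% (10.47) and from 10.28 to 11.32 at 1.0% (10.85). At 0.5% 3 and at 1.0% 4 of 6 mice were above the highest control. The slope was 0.62 per 1% quercetin (SE 0.19, limma, unadjusted p = 0.00302, adjusted p = 0.181), and 0.35 without the 4 arrays. Il1rn, the secreted antagonist of the interleukin-1 receptor, was dim, differed by 0.55 and 0.38 at 0.5% and 1.0% (SE 0.34), and overlapped with control at both.

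Among the protease inhibitors, Serpina3n, an inhibitor of serine proteases, had 4 high mice, which were the 4 arrays apart. Its lowest, median and highest levels were 9.74, 9.84 and 9.97 in control, 9.90, 9.92 and 9.94 at 0.1%, 9.73, 9.91 and 11.28 at 0.5%, and 9.99, 10.20 and 11.11 at 1.0%. The 6 mice at 1.0% all exceeded the highest control, although the lowest did so by little. The difference was 0.58 at 1.0% (SE 0.24, limma, unadjusted p = 0.0255, adjusted p = 0.491) and 0.41 at 0.5% (SE 0.24), where replicates 4 and 6 stood at 10.98 and 11.28 and the other 4 mice at 9.73 to 10.07. With the 4 arrays left out it was 0.27 at 1.0% and -0.02 at 0.5%.

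Serpina10 encodes the protein Z-dependent protease inhibitor of coagulation, and its probe set is of a kind that can bind related transcripts. It ran from 10.17 to 10.28 in control, from 10.21 to 10.98 at 0.5% and from 10.17 to 10.95 at 1.0%. At both doses 5 of 6 mice lay above the highest control, and the difference was 0.30 and 0.31 (SE 0.13). Leaving out the 4 arrays, it was 0.12 (limma, unadjusted p = 0.246, adjusted p = 0.989) and 0.17 (unadjusted p = 0.122, adjusted p = 0.715), so both calls at the looser rule were lost. The inter-alpha-trypsin inhibitor heavy chains Itih3 and Itih4 differed by -0.03 and 0.09 at 0.5% and by -0.06 and 0.09 at 1.0%. Ambp, which encodes alpha-1-microglobulin and bikunin, differed by -0.15 at 0.5% (SE 0.07, adjusted p = 0.66) and -0.07 at 1.0%. Its 0.5% mice (11.74 to 11.93) all lay below the 0.1% mice (11.94 to 12.18), which was so for 0.676% of genes.

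The orosomucoids are acidic glycoproteins that bind drugs and lipids. All 3 lay above control at 0.5% (46.6% of genes) and 1 of 3 at 1.0% (48.4%). At an unadjusted p under 0.05 were 1 and 0 (7.65% and 8.92% of genes). Between 0.5% and 1.0%, 0 of 3 had such a p (higher 3.25%, lower 2.95% of genes). Orm1, the brightest, differed by 0.13 at 0.5% and -0.11 at 1.0% (SE 0.14). Orm2 had levels of 3.87, 4.30 and 5.63 (lowest, median and highest) in control, 4.16, 5.15 and 7.17 at 0.5%, and 4.40, 5.00 and 5.87 at 1.0%, and differed by 1.04 (SE 0.39, limma, unadjusted p = 0.0139, adjusted p = 0.563) and 0.65. Its highest value, 7.17, was in the 0.5% array with high 18S signal. Without the 2 such arrays the 0.5% difference was 0.70 (limma, unadjusted p = 0.0538). It was 0.93 without the 4 arrays apart (limma, unadjusted p = 0.0542) and 0.32 without all 6 (unadjusted p = 0.385). The call at 0.5% was thus lost in each set. Orm3 lay near the floor, brighter than 16.9% of probe sets, so its differences are uncertain. It was highest at 0.1%, where 4 of 6 mice stood at 2.60 to 3.39 against 0.461 to 1.499 in control (difference 1.25, SE 0.37, unadjusted p = 0.00238, adjusted p = 0.878).

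Haptoglobin and hemopexin, which bind free haemoglobin and haem, and the 3 fibrinogen chains, which form the clot, were among the brightest transcripts and differed little. They are brighter than 99.8% or more of probe sets, where quantile normalization gives every array the same values by rank. Their small differences are read with that limit. Hp differed by 0.06 at 0.5% and 0.15 at 1.0% (SE 0.08), with a slope of 0.15 per 1% quercetin (SE 0.07, limma, unadjusted p = 0.0431, adjusted p = 0.438). Its slope was 0.0871 with the 4 arrays left out (limma, unadjusted p = 0.255, adjusted p = 0.812). Hpx differed by 0.01 and 0.00, Fga by 0.07 and 0.09, Fgb by 0.02 and 0.04 and Fgg by 0.01 and 0.05 at 0.5% and 1.0%. Fgl1, a hepatocyte-secreted relative of the fibrinogens, had larger differences, 0.57 and 0.73, and a larger SE (0.38). Neither had an unadjusted p under 0.05. Fgl1 ran from 8.32 to 9.54 in control, from 8.42 to 10.17 at 0.5% and from 8.40 to 10.52 at 1.0%. These groups overlapped, and Fgl1 had 3 of 6 mice above the highest control at each dose. Leaving out the 4 arrays, Fgl1 differed by 0.20 and 0.35. Its slope was then 0.48 (limma, unadjusted p = 0.164, adjusted p = 0.743), so its call for the slope at the looser rule was lost. The pentraxins Crp and Apcs, which bind microbial and damaged-cell surfaces, differed by 0.04 and 0.04 at 0.5% and by 0.01 and 0.08 at 1.0%.

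Of the genes for binding copper and lipopolysaccharide, Cp, the copper ferroxidase ceruloplasmin, was lower at an unadjusted p under 0.05 at 1.0% and for the slope. It alone of the 26 positive members was so (3.85%), a share below that of all genes (4.47% and 6.05%). Its lowest, median and highest levels were 11.40, 11.60 and 11.78 in control and 11.17, 11.40 and 11.52 at 1.0%, with 3 of 6 mice below the lowest control. The difference was -0.20 (SE 0.10, limma, unadjusted p = 0.0467, adjusted p = 0.553). It was -0.19 without the 4 arrays apart (limma, unadjusted p = 0.0605) and -0.16 without the 2 with high 18S signal (unadjusted p = 0.12). Without all 6 arrays it was -0.13 (limma, unadjusted p = 0.22), so the call at 1.0% was lost in each set. The slope kept its call without the 4 arrays (limma, unadjusted p = 0.0459), but not without the 2 (0.0894) or all 6 (0.244). Of the 8 Cp probe sets, 7 were lower than control at 1.0% and 1, a dim one, was not. Lbp, which carries lipopolysaccharide to Cd14, differed by 0.29 and 0.29 (SE 0.16). Cd14, the myeloid coreceptor of lipopolysaccharide, was dim, and differed by 0.49 and 0.59 (SE 0.42). With the 4 arrays left out Cd14 differed by -0.33 at 0.5% and 0.29 at 1.0%.

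**Figure D3:**
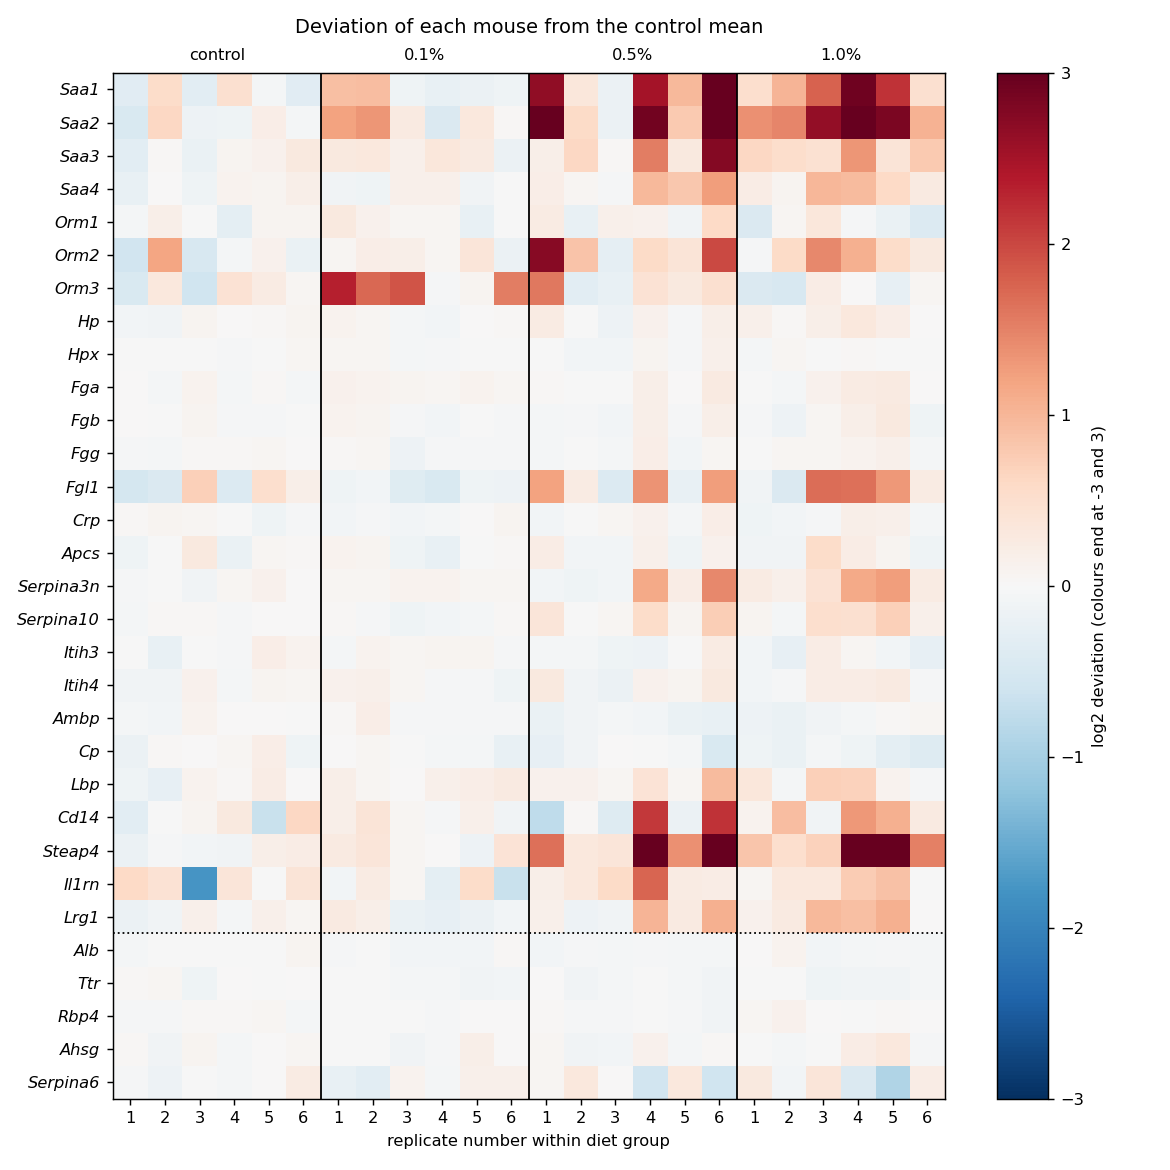
Deviation of each mouse from the control mean for the 31 measured members (rows, by role, negative reactants below the dotted line) and 24 mice (columns, by diet group), on a log2 scale whose colours end at -3 and 3. Saa1 and Saa2 are darkest red in replicates 1, 4 and 6 at 0.5% and in replicates 3, 4 and 5 at 1.0%, and Orm3 stands out at 0.1%.

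The positive members were uneven between mice of one diet. Of the 26, the number above the highest of the 6 control mice was 18 and 22 in replicates 4 and 6 of the 0.5% group and 18 and 17 in replicates 4 and 5 of the 1.0% group, the 4 arrays apart on the first component. Replicate 3 of the 1.0% group, which did not stand apart, had 17. Replicate 1 of the 0.5% group had 11 and the other 0.5% mice 2, 2 and 8, while the other 1.0% mice had 8, 9 and 6. At 0.1% the counts were 10, 9, 1, 1, 0 and 4. In the 4 arrays and replicate 3 of the 1.0% group, 65.4% to 84.6% of the positive members lay above the highest control, where 12.7% to 22.8% of all genes did in any of the 18 mice.

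**Figure D4:**
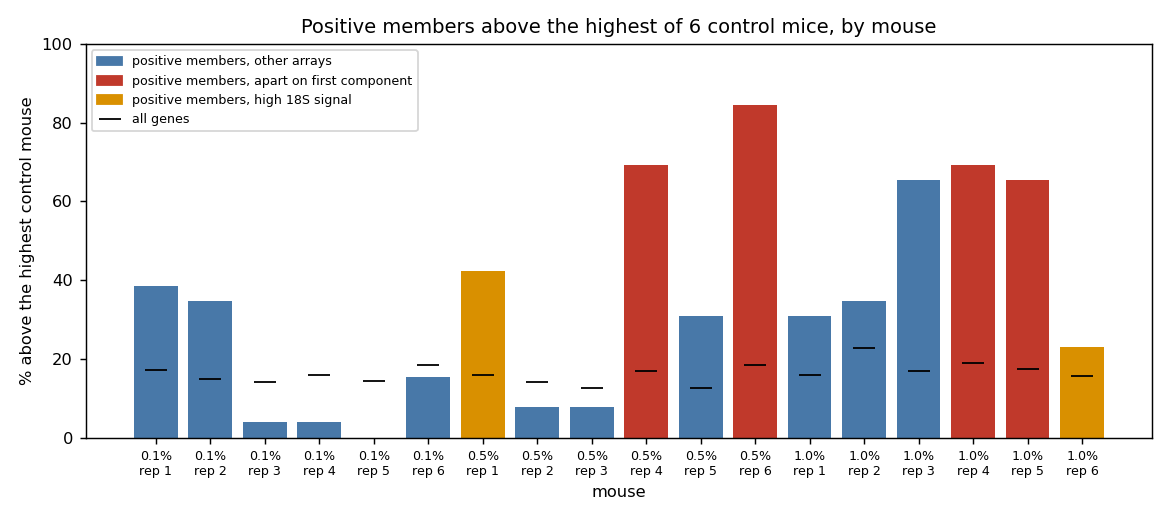
Share of the 26 positive members above the highest of 6 control mice, for each of 18 mice fed quercetin (bars), and the same share over all genes (horizontal marks, 12.7% to 22.8%). Bars reach 65.4% to 84.6% in the 4 arrays apart on the first component and in replicate 3 of the 1.0% group, and 7 mice have a share between 23.1% and 42.3%.

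Leaving out the 4 arrays, the median of the positive members was 0.02 at 0.5%, 0.13 at 1.0% and 0.12 for the slope, against 0.30, 0.22 and 0.20 over all arrays. At an unadjusted p under 0.05, 3 members stood higher at 0.5%, 7 at 1.0% and 8 for the slope, against 7, 8 and 10. Without the 2 arrays with high 18S signal the counts were 5, 10 and 12, and without all 6 arrays they were 1, 8 and 7. The share of all genes at that p was not computed in these sets of arrays, so these counts have no background beside them. The 1 at 0.5% without all 6 arrays was Steap4 (0.68, limma, unadjusted p = 0.0041, adjusted p = 0.941). At 0.5% the count and the median thus depended on these arrays, with fewer mice left in that group. At 1.0% the count was 7 to 10 in these sets. At 1.0% it was 5 without replicate 4 of that group alone, and 4 with arrays centred on their medians in place of quantile normalization. The neutrophil marker list, whose summed level ran from 5.85 to 6.37 in control, was 7.06 to 8.50 in the 4 arrays and 6.04 to 6.66 in the other 8 mice at 0.5% and 1.0%. Its part in the result was not tested. Of the list, 9 of 10 members were measured and 0 passed the adjusted threshold. Camp, a defining granule marker, was brighter than 6.73% of probe sets and so near the floor. The Kupffer cell list, 8 of 8 measured, had a summed level of 9.80 to 10.03 in control and 9.66 to 9.92 in the 4 arrays.

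Relations of Saa1 with other members were read over the 20 mice outside the 4 arrays, because the 4 form a cluster of their own. The partners were the 7 other positive members higher at 1.0% by the looser rule, and Serpina6. Each value was taken as its deviation from the diet mean and permuted within diets 100000 times, since a difference between diets alone gives a correlation among members chosen for it. The Saa1 and Saa2 signals may share RNA, so a relation between these 2 may be built in to an unknown part. Saa1 and Saa2 had a Pearson r of 0.939 (permutation p = 7e-05, adjusted over 8 relations 0.00056) and a Spearman rho of 0.835 (permutation p = 0.00013). Leaving out the 2 mice farthest from the Saa1 median, r was 0.877. Saa1 and Lrg1 had r = 0.596 (permutation p = 0.00597, adjusted p = 0.0239) and rho = 0.771 (permutation p = 0.00085), with r = 0.591 without those mice. Saa1 and Serpina10 had r = 0.643 (permutation p = 0.0201, adjusted p = 0.0537) and rho = 0.595 (permutation p = 0.0248), and r = 0.328 without the 2 mice, so this relation missed the threshold and rests on them. The other 5 did not pass. Steap4 had r = 0.488 (permutation p = 0.181) and rho = 0.343 (permutation p = 0.261), Saa4 r = 0.273 (permutation p = 0.436) and Serpina3n r = 0.175 (permutation p = 0.645). For Saa3 r was -0.0142 (permutation p = 0.964), and for Serpina6 -0.383 (permutation p = 0.121). All 20 mice share the array type and its normalization.

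The negative reactants stood near the control level. Albumin, the main carrier protein of plasma, had a median of 13.17 in control and 13.11 to 13.13 at the 3 doses, and its differences were -0.04, -0.05 and -0.02 (SE 0.06). Transthyretin and retinol-binding protein, which carry thyroid hormone and retinol, differed by -0.08 and 0.04 at 1.0%, and fetuin-A (Ahsg), which keeps calcium phosphate in solution, by 0.07 (SE 0.08). Of the 4 Ttr probe sets, 3 were slightly lower than control at 1.0%, and 1 was higher by 0.16, with r = -0.442 to the one used over 24 arrays, so the direction of Ttr is not settled. These 4 transcripts are brighter than 99.9% or more of probe sets, where quantile normalization gives every array the same values by rank. Serpina6, corticosteroid-binding globulin, was dimmer and varied between mice.

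Serpina6 differed from control by -0.08 at 0.5% and -0.09 at 1.0% (SE 0.20), but the means hid an uneven pattern. Its range was 9.98 to 10.4 in control, 9.82 to 10.3 at 0.1%, 9.54 to 10.4 at 0.5% and 9.24 to 10.5 at 1.0%. The lowest 4 of the 12 mice at 0.5% and 1.0% were the 4 arrays apart, at 9.24 to 9.69, and the other 8 stood at 10.1 to 10.5. Without the 4 arrays the difference was 0.17 and 0.20 and the slope 0.24 per 1% quercetin (limma, unadjusted p = 0.0376, adjusted p = 0.557), so that the sign turned. RefSeq places Serpina6 near Serpina10 on chromosome 12, and Serpina10 ran from 10.70 to 10.98 in the 4 arrays.

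**Figure D5:**
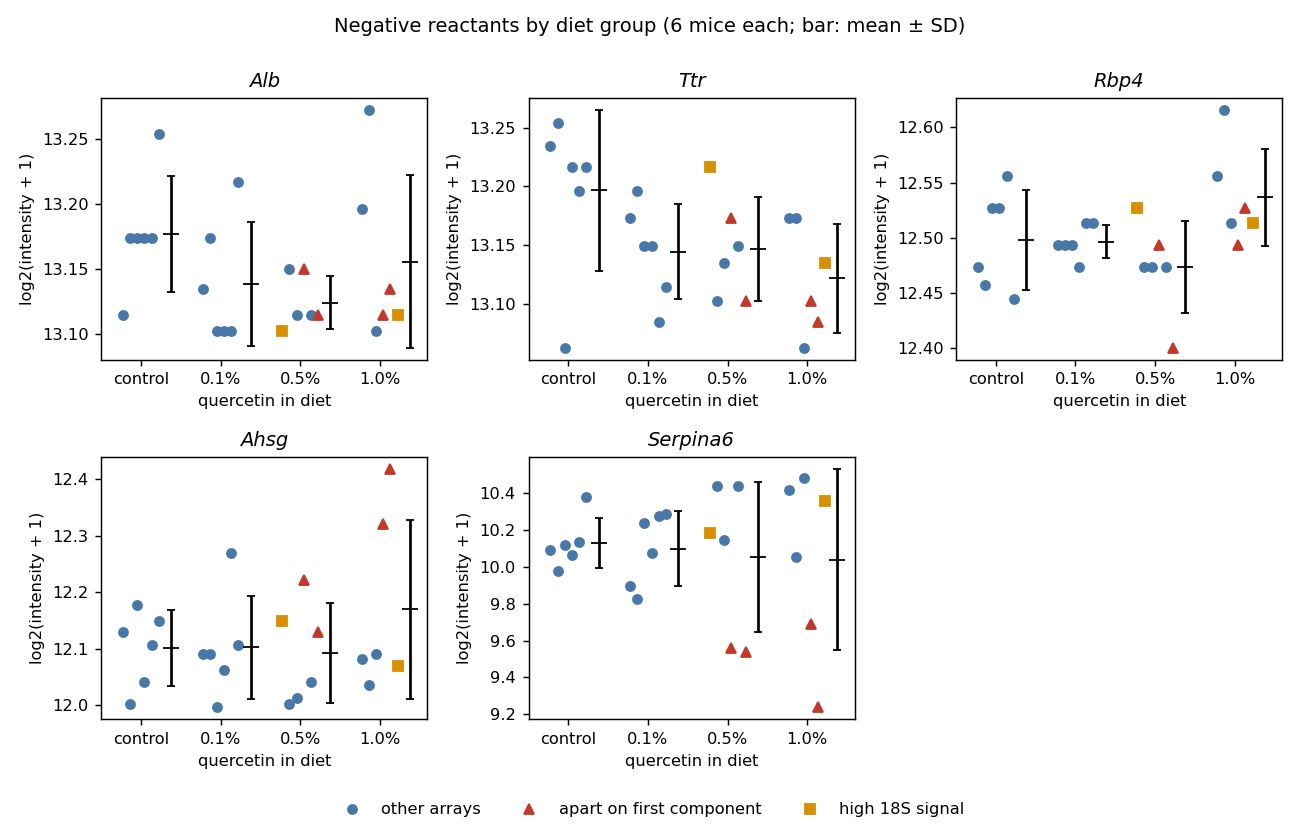
Level of the 5 negative reactants in each of 24 mice by diet, as log2(intensity + 1) after quantile normalization, with the same symbols as for the positive members and bars of mean ± SD over 6 mice; the vertical scales differ between genes. Alb, Ttr, Rbp4 and Ahsg span less than 0.5 in all mice, while Serpina6 is lowest (9.24 to 9.69) in the 4 arrays apart on the first principal component.

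The genes that control the response were read from a list of 31 receptors, kinases, inhibitors and transcription factors, of which 29 were analysed here. Against control, 0 of 29 passed the adjusted threshold at 0.1%, 0.5% or 1.0% (0%, 0.0165% and 0.022% of genes). The same held for 0.5% against 0.1% (0.214% of genes) and for 1.0% against 0.5% (0.022%). For the slope over dose 1 of 29 rose and 0 fell, where 0.0385% of all genes rose and 0.0605% fell. The gene that rose was Socs3, the STAT3-induced inhibitor of interleukin-6 signalling, with a lowest, median and highest level of 3.55, 4.47 and 6.42 in control, 3.97, 4.42 and 4.94 at 0.1%, 5.12, 6.57 and 7.94 at 0.5%, and 5.51, 6.93 and 7.59 at 1.0%. Both higher doses overlapped with control. The Socs3 slope was 2.46 per 1% quercetin (SE 0.47, limma, adjusted p = 0.0343). The slope was 2.48 with the 4 arrays left out (adjusted p = 0.042) and 2.99 with the 2 arrays of high 18S signal left out as well (adjusted p = 0.0124). Over 37 alternatives the slope ran from 1.85 to 2.99 and passed in 21, with adjusted p from 0.0124 to 0.128, the highest without normalization between arrays. Next by p-value, none passing, were Cebpb, a C/EBP factor that drives acute phase promoters (1.12, adjusted p = 0.167), Hnf4a, a liver-enriched factor (0.48, adjusted p = 0.237), and Bcl3, a cofactor of NF-kB (1.05, adjusted p = 0.294). Socs3 was also the 1 of the 29 that passed for 1.0% against 0.1% (2.30, limma, adjusted p = 0.0371), where it rose (0.115% of genes rose), and it passed there in 21 of 38 alternatives.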

How the data were processed

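Liver RNA of 24 mice in 4 diet groups of 6 was measured on 1 Affymetrix array each. Biotin-labelled cRNA was prepared from the total RNA, per the labels' protocols. The authors deposited 1 table of intensity values on a linear scale for 45101 probe sets, with the background correction, summary and software not given in the sources used here. From these deposited intensities, log2(intensity + 1) was computed and quantile-normalized between arrays in limma 3.58.1 under R 4.3.3. Of the probe sets, 34945 had 1 gene symbol and for each gene the brightest probe set on average stood for it. All 24 arrays entered 1 fit of 4 groups, or of dose as a number, with eBayes and two-sided tests. The members were named by symbol, and the members and lists were chosen with earlier results of these data known. Other genes named are the 4 of a list with the smallest p for the slope. Differences are on the log2(value + 1) scale, so those of dim genes come out too small. Fits were tested on simulated data. The alternatives were normalization, pseudocount 16, handling of probe sets, a filter on the dimmest 30 percent of genes, eBayes options, array weights, fits with 2 groups, replicate blocks and each array left out. Leaving out the 4 arrays apart, the 2 with high 18S signal or both was added after the data were seen. The values of Socs3 under the alternatives and the permutation within diets were added after the data were seen.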

Additional observations from a re-analysis of the deposited data

Results flagged for a closer look

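In 7 of 124 groups of 6 mice, 1 member per group, the highest or lowest mouse lay far from the others by Dixon's test, which chance gives in about 1 of 20 groups. Control replicate 6 was the highest for Hpx (12.53), and control replicate 3 the highest for Fgb (12.89) and the lowest for Il1rn (2.031) and Ttr (13.06). Il1rn stood at 5.548 in replicate 4 of the 0.5% group, an array apart on the first principal component, and Itih3 at 10.69 in replicate 6, another of these. Ambp was 12.18 in replicate 2 of the 0.1% group. For Il1rn the next lowest control mouse was at 3.80.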

How the results depend on the processing

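Member results were recomputed under 38 alternatives, 24 of them with 1 array left out; slopes had 37, as the fit of 2 groups gives none, and Orm3 1 fewer, as it is left out with the dim genes. Of 217 member values, 1 passed the threshold in any of them, the difference of Orm3 at 1.0% against 0.1% without replicate 4 of the 0.1% group, where 1 member passed (range over single arrays left out 0 to 1). Without normalization between arrays the median of all genes was 0.11 above control at 0.1%, 0.15 at 0.5% and 0.05 at 1.0%, so that medians there are relative to these. The median of the positive members at 0.5% was then 0.486, and the negative reactants stood at 0.0545, 0.0884 and 0.0705 at 0.1%, 0.5% and 1.0% and at 0.0525 for the slope. With arrays centred on their medians the negative reactants were at -0.0737 at 0.1% and 0.00244 at 0.5%, and 4 positive members were higher at 1.0% at an unadjusted p under 0.05. With the mean of all probe sets the negative reactants were at 0.0124 at 1.0%, and with the most variable probe set at 0.0388 at 1.0% and 0.0342 for the slope. Without dim genes 0 members were higher at 0.1%. Leaving out single arrays, the count of positive members higher at 1.0% ran from 5 to 9, and the median of the negative reactants from -0.0537 to -0.0158 at 0.5% and from -0.0448 to 0.0188 at 1.0%. The count of 5 came without replicate 4 of the 1.0% group, and the highest of these medians came without replicate 6 of the 0.5% group and replicate 5 of the 1.0% group. Without the 4 arrays apart 3 positive members were higher at 0.5% with a median of 0.0209, and without these and the 2 arrays with high 18S signal 1, with a median of -0.0279, and the negative reactants stood at 0.0131 at 1.0%. The share of all genes at an unadjusted p under 0.05 was not computed under the alternatives, and the cause of these changes was not tested. With the replicate block, 7, 8 and 9 positive members were higher at 0.5%, 1.0% and for the slope, against 7, 8 and 10. The Socs3 slope was 2.46 with that replicate block (limma, adjusted p = 0.0838). With sets of 3 replicates (1 to 3 and 4 to 6) as a random block, Socs3 also missed the threshold. Its adjusted p was then 0.0595 for the slope and 0.0612 for 1.0% against 0.1% (limma). Same-numbered arrays were not alike across diets: 1 of 36 pairs of them had a correlation over 0.1, and 4 of 24 arrays correlated best with their own number. The 4 arrays apart all lay among replicates 4 to 6 of their groups. No cage number was used here, so whether these sets share a cage was not tested. Genes passing over all genes ran with pseudocount 16 to 103 for the slope, with the dim filter to 81 and with trended, robust eBayes to 85, against 18, and without normalization to 0. Over all alternatives the genes passing ranged from 0 to 7 at 0.5% (3 as reported), 0 to 7 at 1.0% (4), 2 to 100 for 0.5% against 0.1% (39), 6 to 111 for 1.0% against 0.1% (46), 0 to 8 for 1.0% against 0.5% (4) and 4 to 97 for any difference (33). The sign of 119 of the 217 member values changed in at least 1 alternative. The number of arrays and the signal of dim members such as Orm3, Cd14 and Il1rn limit what can be read.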

Other observations

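Other acute phase reactants that were not members were measured for 15 of 16, and 0 passed for the slope. Of the 15, 5 lay above control at 0.5%, 5 at 1.0% and 5 above 0 for the slope. Of all genes, 46.6%, 48.4% and, for the slope, 8654 of 18193 did. The medians of the 15 were -0.05, -0.10 and -0.11, lower than those of the positive members. At an unadjusted p under 0.05, 4, 4 and 3 of the 15 were higher (3.74%, 4.45% and 4.86% of genes). Lower at that p were 2, 1 and 2 (3.91%, 4.47% and 6.05%). Higher values at the looser rule were thus not particular to the members. The metallothionein genes Mt1 and Mt2, whose proteins bind zinc inside cells, had slopes of 4.89 (SE 1.02, limma, adjusted p = 0.0599) and 5.24 (SE 1.15, adjusted p = 0.0709) per 1% quercetin. Mt1 was 4.67 to 5.83 in control, 5.07 to 12.6 at 0.5% and 7.47 to 12.6 at 1.0%. Lcn2, a siderophore-binding protein also made by neutrophils, had a slope of 2.20 (SE 0.64, adjusted p = 0.163), and Cfb, complement factor B, one of -0.20 (SE 0.09, adjusted p = 0.432). Of 5 other negative reactants, 0 passed, with Igfals at -0.38 and Apom at -0.07. Of 10 relatives of Serpina3n, 2 were measured and neither passed.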
